A study of Homo sapiens with 12 samples.

Results

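Plasma cells assemble and export antibody at a high rate, and the 9 genes described here serve that work: JCHAIN, MZB1, TENT5C, FKBP11, DERL3, ELL2, SEC11C, SSR4 and PRDX4. They were chosen by name, with earlier results of these data known, as the probe sets that map to each of them. They account for 9 of 19775 genes and 19 of 54613 probe sets. All 9 were measured, by 1 to 4 probe sets each, and 0 of these probe sets names a second gene. Cultures selected for resistance to carfilzomib, KMS-11/Cfz from the line KMS-11 and KMS-34/Cfz from the line KMS-34, were kept off the drug for 1 week before RNA was taken, and each was compared with its unselected parent. Carfilzomib is an irreversible inhibitor of the proteasome, the parental cultures are established human myeloma lines with the t(4;14) translocation, and the derivatives were adapted in steps to 12 nM of the drug. Each derivative is a selected culture of 1 line, and no source used here says that it was cloned. RNA of 3 replicates of each of the 4 cultures was hybridised to Affymetrix Human Genome U133 Plus 2.0 arrays, 12 in all.

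An antibody chain enters the endoplasmic reticulum (ER) through the SEC61 channel, loses its signal peptide, folds with the help of chaperones, prolyl isomerases and disulfide-forming enzymes, and is returned to the cytosol for the proteasome to degrade if it fails to fold. Plasma cells are known for expanding all of these steps, and myeloma cells, the malignant counterpart of plasma cells, keep much of that load. In this chain ELL2, a transcription elongation factor, favours the secreted form of the heavy chain mRNA, TENT5C is a poly(A) polymerase that stabilises mRNAs of secreted proteins, and SSR4 and SEC11C belong to the translocon-associated and signal peptidase complexes. MZB1 and FKBP11 help chains to fold, PRDX4 forms disulfides, DERL3 serves the disposal of misfolded chains, and JCHAIN joins IgM and IgA into polymers.

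The values were normalized by the authors on the log2 scale and centred probe set by probe set. A centred value is thus a distance from a centre of its probe set and holds no expression level. That centre need not be the middle of these 12 arrays, and for several genes described here, JCHAIN, TENT5C, FKBP11 and PRDX4 among them, it was not. For that reason plasma cell identity could not be checked from levels, and no gene was set against another. A change is the difference of 2 group means on the log2 scale, from a limma fit over all 12 arrays, and "rose" or "fell" is written only of a gene with a Benjamini-Hochberg adjusted p under 0.05 over 19775 genes. Nothing states that replicates came from separate cultures, so the spread behind every p-value is that between arrays, which may be technical. The array least like its group was KMS-34/Cfz replicate 1, with a mean correlation of 0.785 to the other arrays of its group, against 0.842 to 0.945 for the other 11 arrays. Of the marker lists for other cell types, none of 10 T and NK cell genes and none of 6 stromal genes passed in either line, while CD14, 1 of 7 monocyte genes, fell by 0.32 in KMS-34/Cfz. Of 4 erythroid genes, HBD fell by 0.55 in KMS-11/Cfz and by 1.25 in KMS-34/Cfz, and HBB by 0.29 in KMS-34/Cfz. The summed centred values of these 4 ran from -0.28 to -0.07 in KMS-34/Cfz, against 1.15 to 1.77 in KMS-34, and from -1.51 to -1.21 in KMS-11/Cfz, against -1.26 to -1.06 in KMS-11, and their part in the results below was not tested.

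Promoter windows are shown for MZB1, FKBP11, SEC11C and TENT5C, the genes that fell in KMS-11/Cfz and for which a window was used. Windows of 300 bases, 250 before and 50 after an annotated start, were taken from RefSeq on GRCh38.p14, and 9 windows of 7 of the 9 genes were used, while those of ELL2 and DERL3 were not used here. Capitals mark ACGTG read on either strand, the core of an element bound by XBP1, a transcription factor of plasma cells, so that its reverse complement CACGT is in capitals too and the palindrome CACGTG counts on both strands. MZB1 lies at chr5:139389864-139390163 on the minus strand, FKBP11 at chr12:48924939-48925238 on the minus strand, SEC11C at chr18:59139634-59139933 on the plus strand and TENT5C at chr1:117605798-117606097 on the plus strand.
MZB1: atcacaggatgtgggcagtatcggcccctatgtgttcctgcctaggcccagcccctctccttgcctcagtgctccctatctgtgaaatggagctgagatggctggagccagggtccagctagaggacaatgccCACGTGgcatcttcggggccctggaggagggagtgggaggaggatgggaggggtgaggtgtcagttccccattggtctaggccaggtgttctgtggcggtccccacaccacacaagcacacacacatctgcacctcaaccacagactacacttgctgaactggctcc
FKBP11: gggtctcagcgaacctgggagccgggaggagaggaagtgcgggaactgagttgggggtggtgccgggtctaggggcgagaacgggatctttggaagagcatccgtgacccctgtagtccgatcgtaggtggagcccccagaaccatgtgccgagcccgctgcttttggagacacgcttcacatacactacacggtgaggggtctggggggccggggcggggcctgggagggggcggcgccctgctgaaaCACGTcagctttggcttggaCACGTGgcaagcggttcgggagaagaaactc
SEC11C: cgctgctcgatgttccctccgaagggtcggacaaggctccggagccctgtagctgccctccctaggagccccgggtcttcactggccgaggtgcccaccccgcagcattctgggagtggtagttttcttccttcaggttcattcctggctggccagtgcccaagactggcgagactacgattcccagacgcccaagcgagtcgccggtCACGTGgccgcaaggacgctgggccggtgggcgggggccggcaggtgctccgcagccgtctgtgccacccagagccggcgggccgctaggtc
TENT5C: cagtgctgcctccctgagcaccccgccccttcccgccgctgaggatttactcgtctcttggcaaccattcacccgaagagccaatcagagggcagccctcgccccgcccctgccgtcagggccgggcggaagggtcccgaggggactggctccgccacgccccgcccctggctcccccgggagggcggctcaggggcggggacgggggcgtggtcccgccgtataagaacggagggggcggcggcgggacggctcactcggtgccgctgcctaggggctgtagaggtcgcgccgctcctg
The letters ACGTG or CACGT stood in 7 of the 9 windows, those of MZB1, FKBP11, SEC11C, SSR4 and PRDX4, and in 21.4% of the 35116 promoter windows of the same length. FKBP11 and SSR4 each gave more than 1 window, and those of SSR4 overlap, so by gene the letters stood in 5 of 7. The other FKBP11 window, at chr12:48925443-48925742, held 1 match and is not shown. The windows of TENT5C and JCHAIN held none. The 7 windows with these letters held 59.7% to 70.3% G and C, against a median of 58.7% over all promoter windows. Those of TENT5C and JCHAIN held 73.7% and 34.3%. The share of 21.4% was not matched for base composition. The other motif searched, CCAAT on either strand, stood in 3 of the 9 windows (MZB1, TENT5C and 1 of SSR4) and in 34.6% of all. A match is a description of the letters, not a binding site, and genes with these letters were found both among those that fell and among those that did not pass.

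All 9 genes had a negative change in KMS-11/Cfz, and 5 of them fell: FKBP11, MZB1, TENT5C, ELL2 and SEC11C. None rose. Among all genes, 1.94% fell and 1.63% rose in KMS-11/Cfz. Because the 9 genes were chosen with earlier results of these data known, such counts describe them and do not test them as a set. On 8 of the 9 genes every KMS-11/Cfz array lay below every KMS-11 array, which held for 13.7% of all genes, and JCHAIN was the exception. The median change of the 9 genes was -0.28, against 0.00 for all genes. In KMS-34/Cfz, TENT5C and FKBP11 fell and JCHAIN rose, where 4.69% of all genes fell and 5.40% rose. Here 5 genes lay wholly below their parental arrays, 2 wholly above and 2 overlapped. Of all genes, 10.5% lay wholly below in KMS-34/Cfz, 10.2% wholly above and 79.3% overlapped. The median change of the 9 genes was -0.08, against -0.01 for all genes. By single probe sets, 8 of 19 fell and 0 rose in KMS-11/Cfz (1.02% and 0.729% of all probe sets), while 4 fell and 1 rose in KMS-34/Cfz (3.18% and 3.87% of all).

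**Figure D1:**
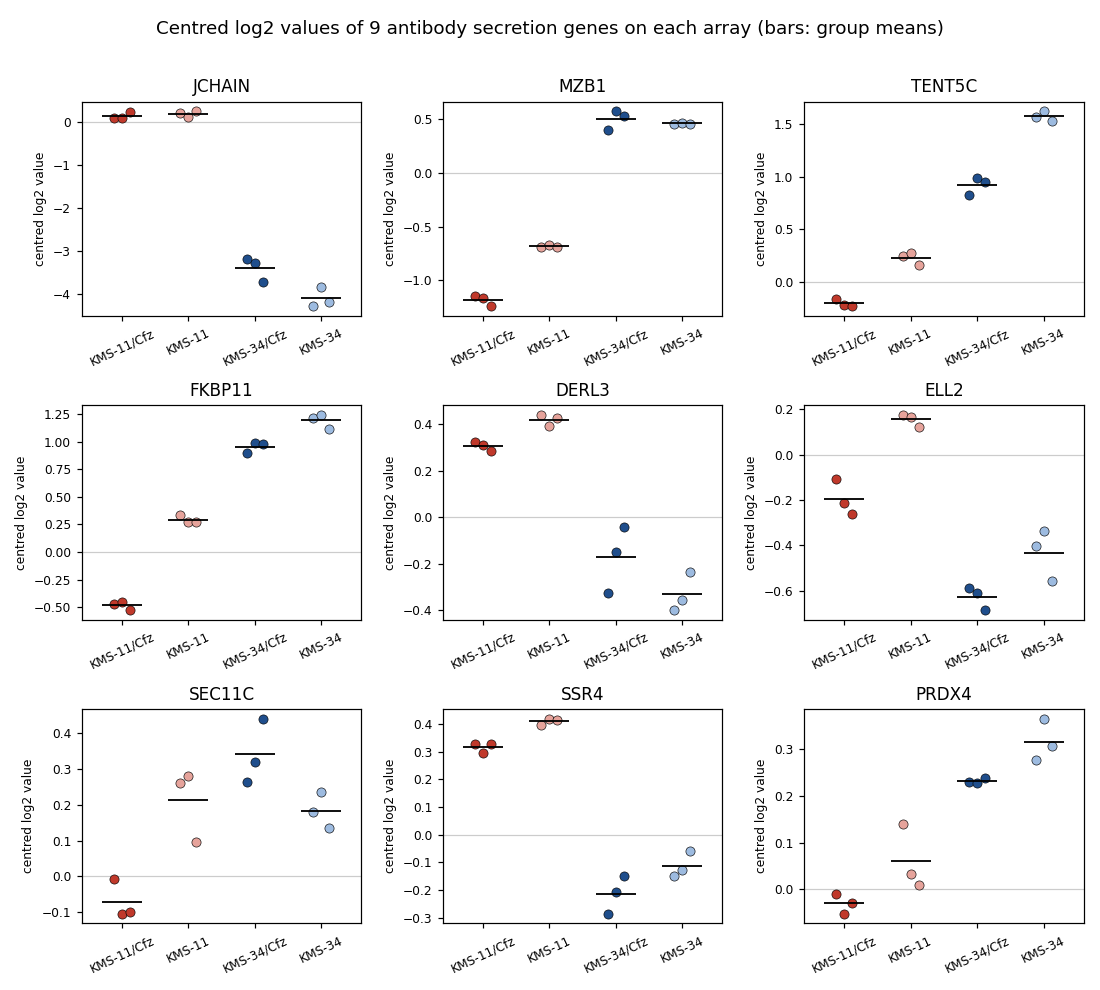
Centred log2 values of the 9 genes on each of the 12 arrays, 1 panel a gene, with 3 points a group and a bar at the group mean. FKBP11, MZB1 and TENT5C lie lower on every KMS-11/Cfz array than on any KMS-11 array, and JCHAIN lies far lower in both KMS-34 cultures than in both KMS-11 cultures.

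FKBP11, a membrane-bound prolyl isomerase of the ER that secretory tissues and plasma cells express, had the largest fall of the 9 genes in KMS-11/Cfz. Its centred log2 values were -0.47, -0.45 and -0.53 on the KMS-11/Cfz arrays, against 0.34, 0.27 and 0.28 on the KMS-11 arrays. It fell by 0.78 on the log2 scale (SE 0.06, 95% interval -0.90 to -0.65, limma adjusted p = 7.7e-06), or 1.71-fold. Its 3 probe sets moved alike, with changes of -0.73, -0.84 and -0.76, and all 3 passed over the whole array. In KMS-34/Cfz the values were 0.90, 0.99 and 0.98, against 1.22, 1.24 and 1.12 in KMS-34. These groups did not overlap either, and the fall was 0.24 (SE 0.06, limma adjusted p = 0.02). Of the 3 probe sets only 228308_at passed alone in KMS-34/Cfz (-0.35, limma adjusted p = 0.014). The call ended without KMS-34 replicate 1 (limma adjusted p = 0.065) or replicate 2 (limma adjusted p = 0.064), and both when this line was fitted alone and with the probe set of largest variance (limma adjusted p = 0.17 in each).

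MZB1, an ER protein that works with the chaperone GRP94 in the assembly of immunoglobulin chains, separated the derivatives from each other. It measured -1.15, -1.17 and -1.24 in KMS-11/Cfz, against -0.69, -0.67 and -0.70 in KMS-11. The fall was 0.50 (SE 0.06, limma adjusted p = 3.2e-04), or 1.42-fold, and both probe sets gave it, at -0.50 and -0.51. On the KMS-34/Cfz arrays it measured 0.40, 0.58 and 0.53, against 0.46, 0.47 and 0.46 in KMS-34, and these values overlapped. The change was 0.04 (95% interval -0.09 to 0.17, limma adjusted p = 0.79).

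TENT5C fell in both derivatives and had the largest fall of the 9 genes in KMS-34/Cfz. Its centred values were -0.16, -0.22 and -0.23 in KMS-11/Cfz, against 0.25, 0.28 and 0.16 in KMS-11. The fall was 0.43 (SE 0.06, limma adjusted p = 0.0015), or 1.35-fold. In KMS-34/Cfz it stood at 0.82, 0.99 and 0.94, against 1.57, 1.62 and 1.53 in KMS-34. That fall was 0.65 (SE 0.06, limma adjusted p = 2.5e-05), or 1.57-fold, and in neither line did the arrays overlap. Both probe sets fell in KMS-34/Cfz (-0.71 and -0.60), while in KMS-11/Cfz 226811_at passed alone and 220306_at did not (-0.38, limma adjusted p = 0.057). Under cyclic loess scaling the KMS-11/Cfz change shrank to -0.11 (limma adjusted p = 0.79). That scaling follows the average of centred values, which hold no level. Here and below its results are therefore a description and cannot decide whether a call holds. In bulk RNA of a culture, fewer cells with a transcript and less of it per cell cannot be told apart.

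ELL2 had values of -0.11, -0.22 and -0.26 in KMS-11/Cfz, against 0.17, 0.17 and 0.12 in KMS-11, a fall of 0.35 (SE 0.07, limma adjusted p = 0.012). The KMS-34/Cfz arrays had -0.59, -0.61 and -0.68, against -0.40, -0.34 and -0.55 in KMS-34. Neither pair of groups overlapped, but the KMS-34/Cfz change of -0.20 did not pass (95% interval -0.34 to -0.05, limma adjusted p = 0.1). Of its 4 probe sets, 226982_at fell in both derivatives (-0.45 in KMS-11/Cfz, -0.37 in KMS-34/Cfz) and 214446_at in KMS-11/Cfz (-0.43), and the other two passed in neither. The KMS-11/Cfz call ended without KMS-11/Cfz replicate 2 or 3 or KMS-11 replicate 1 or 2 (limma adjusted p = 0.054 to 0.074), and under cyclic loess scaling (-0.23, limma adjusted p = 0.15). The KMS-34/Cfz change passed without KMS-34 replicate 3 (-0.26, limma adjusted p = 0.041) and with the probe set of largest variance (-0.37, limma adjusted p = 0.02).

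SEC11C, a catalytic subunit of the signal peptidase, had changes of opposite sign in the derivatives. It had -0.01, -0.10 and -0.10 in KMS-11/Cfz, against 0.26, 0.28 and 0.10 in KMS-11. The fall was 0.28 (SE 0.07, limma adjusted p = 0.043), and it was lost on leaving out any of 8 arrays, namely any KMS-11/Cfz array, KMS-11 replicate 1 or 2, KMS-34 replicate 1 or 3, or replicate 2 of KMS-34/Cfz (limma adjusted p = 0.052 to 0.18). It was lost too with aligned array medians (limma adjusted p = 0.055) and with the probe set of largest variance (-0.36, limma adjusted p = 0.1). In KMS-34/Cfz it had 0.26, 0.32 and 0.44, against 0.18, 0.24 and 0.13 in KMS-34, wholly above but with a change of 0.16 that did not pass (limma adjusted p = 0.21). Its probe sets differed in size, 235676_at at -0.36 in KMS-11/Cfz but 0.33 in KMS-34/Cfz, and 223299_at at -0.20 in KMS-11/Cfz but -0.01 in KMS-34/Cfz, and none of these passed alone.

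JCHAIN, the joining chain of polymeric IgM and IgA, was the only one of the 9 genes that rose in a derivative. It stood at -3.18, -3.28 and -3.71 in KMS-34/Cfz, against -4.29, -3.83 and -4.19 in KMS-34. The rise was 0.71 (SE 0.13, limma adjusted p = 0.0037), or 1.64-fold, without overlap. In KMS-11/Cfz it measured 0.10, 0.09 and 0.22, against 0.21, 0.12 and 0.25 in KMS-11, and the change of -0.05 was smaller than its SE of 0.13 (limma adjusted p = 0.95). The rise in KMS-34/Cfz was 0.61 without KMS-34/Cfz replicate 1 (limma adjusted p = 0.011), and 0.16 under cyclic loess scaling (limma adjusted p = 0.97). A single probe set measured this gene.

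DERL3, a Derlin of the ER membrane that takes part in the return of misfolded chains to the cytosol, passed in neither derivative. It had 0.33, 0.31 and 0.28 in KMS-11/Cfz, against 0.44, 0.39 and 0.43 in KMS-11 (-0.11, limma adjusted p = 0.61). In KMS-34/Cfz it had -0.33, -0.15 and -0.04, against -0.40, -0.35 and -0.24 in KMS-34 (0.16, limma adjusted p = 0.23), with the widest spread of a derivative's arrays after JCHAIN. Without KMS-34/Cfz replicate 1, the lowest of these, the change was 0.24 and passed (limma adjusted p = 0.03). Its 3 probe sets disagreed in KMS-11/Cfz, at -0.36, 0.19 and -0.17.

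SSR4, the delta subunit of the translocon-associated protein complex, and PRDX4, the peroxiredoxin of the ER that hands oxidising equivalents to protein disulfide isomerases, changed by less than 0.11 in either line. SSR4 had 0.33, 0.30 and 0.33 in KMS-11/Cfz, against 0.40, 0.42 and 0.42 in KMS-11. In KMS-34/Cfz it had -0.28, -0.21 and -0.15, against -0.15, -0.13 and -0.06 in KMS-34. PRDX4 had -0.01, -0.05 and -0.03 in KMS-11/Cfz, against 0.14, 0.03 and 0.01 in KMS-11. The KMS-34/Cfz arrays gave 0.23, 0.23 and 0.24, against 0.28, 0.36 and 0.31 in KMS-34. Both genes lay wholly below the parental arrays in both lines, yet their 95% intervals reached from -0.22 to 0.03 (SSR4, KMS-11/Cfz) and from -0.21 to 0.04 (PRDX4, KMS-34/Cfz), and limma adjusted p ran from 0.35 to 0.59.

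**Figure D2:**
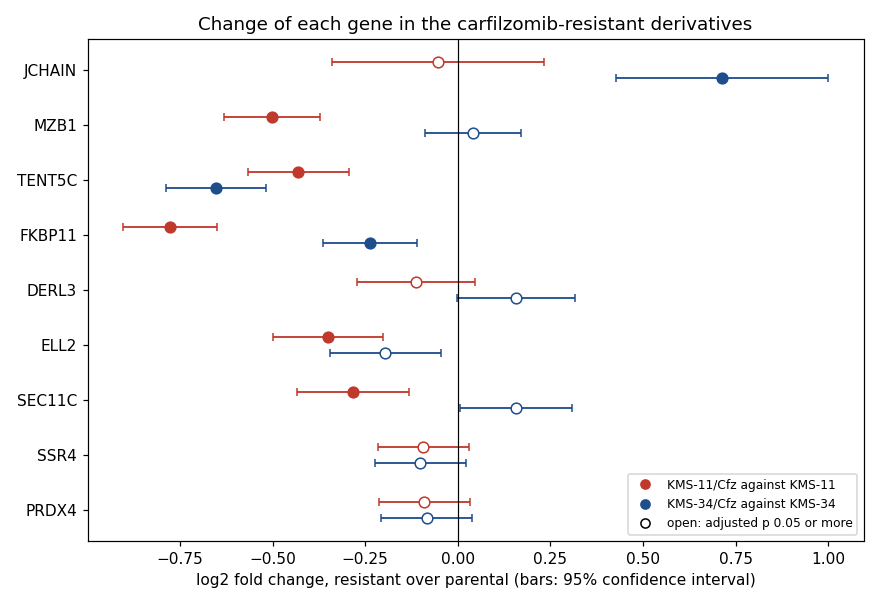
Log2 fold change of each gene in KMS-11/Cfz against KMS-11 and in KMS-34/Cfz against KMS-34, with 95% confidence intervals. Filled points have an adjusted p under 0.05, among them FKBP11 at -0.78 and MZB1 at -0.50 in KMS-11/Cfz and JCHAIN at 0.71 in KMS-34/Cfz.

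Whether the lines responded differently was tested as the KMS-34 change minus the KMS-11 change. The difference passed for 4 of the 9 genes, always with the KMS-34 change the higher, where 3.70% of all genes passed in that direction and 2.74% in the other. Under quantile normalization and under cyclic loess scaling TENT5C passed in the other direction. It was 0.77 for JCHAIN (SE 0.19, limma adjusted p = 0.027), 0.54 for MZB1 (SE 0.08, limma adjusted p = 0.0018), 0.54 for FKBP11 (SE 0.08, limma adjusted p = 0.0016) and 0.44 for SEC11C (SE 0.10, limma adjusted p = 0.018). For TENT5C it was -0.22 (95% interval -0.41 to -0.03, limma adjusted p = 0.19), against -0.44 under quantile normalization (limma adjusted p = 0.0083) and -0.79 under cyclic loess (limma adjusted p = 0.02). For DERL3 it was 0.27 (limma adjusted p = 0.17), and it passed with array weights (0.30, limma adjusted p = 0.024), with the probe set of largest variance (0.57, limma adjusted p = 0.037) and on omission of replicate 1 of KMS-34/Cfz (0.35, limma adjusted p = 0.025). ELL2 differed by 0.15 (limma adjusted p = 0.45). SSR4 and PRDX4 differed by -0.01 and 0.01, with intervals from -0.18 to 0.17 and from -0.17 to 0.18. The JCHAIN difference missed the threshold on leaving out any of 7 arrays, namely KMS-11/Cfz replicate 1 or 2, replicate 1 or 3 of KMS-11, replicate 1 or 3 of KMS-34, or replicate 2 of KMS-34/Cfz (limma adjusted p = 0.061 to 0.072). The SEC11C difference did so without KMS-11/Cfz replicate 2 or 3 or KMS-11 replicate 1 or 2 (limma adjusted p = 0.054 to 0.056), and its size lay in 235676_at (0.69) more than in 223299_at (0.19). Under cyclic loess scaling the FKBP11 difference shrank to 0.10 (limma adjusted p = 0.78) and the JCHAIN difference turned to -2.19 (limma adjusted p = 0.46).

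Averaged over both lines, TENT5C (-0.54), FKBP11 (-0.51), ELL2 (-0.27) and MZB1 (-0.23) fell and JCHAIN (0.33) rose, where 3.86% of all genes fell and 3.99% rose. The MZB1 average is made of a fall in KMS-11/Cfz and no detected change in KMS-34/Cfz. The JCHAIN average, at limma adjusted p = 0.049, was lost on leaving out any of 10 arrays (limma adjusted p = 0.074 to 0.12). These were all but KMS-34/Cfz replicate 3 and KMS-34 replicate 2. It was lost too under cyclic loess scaling (limma adjusted p = 0.4). With the probe set of largest variance, which for JCHAIN is its only one, the change stayed at 0.33 and only the limma adjusted p moved, to 0.058.

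**Figure D3:**
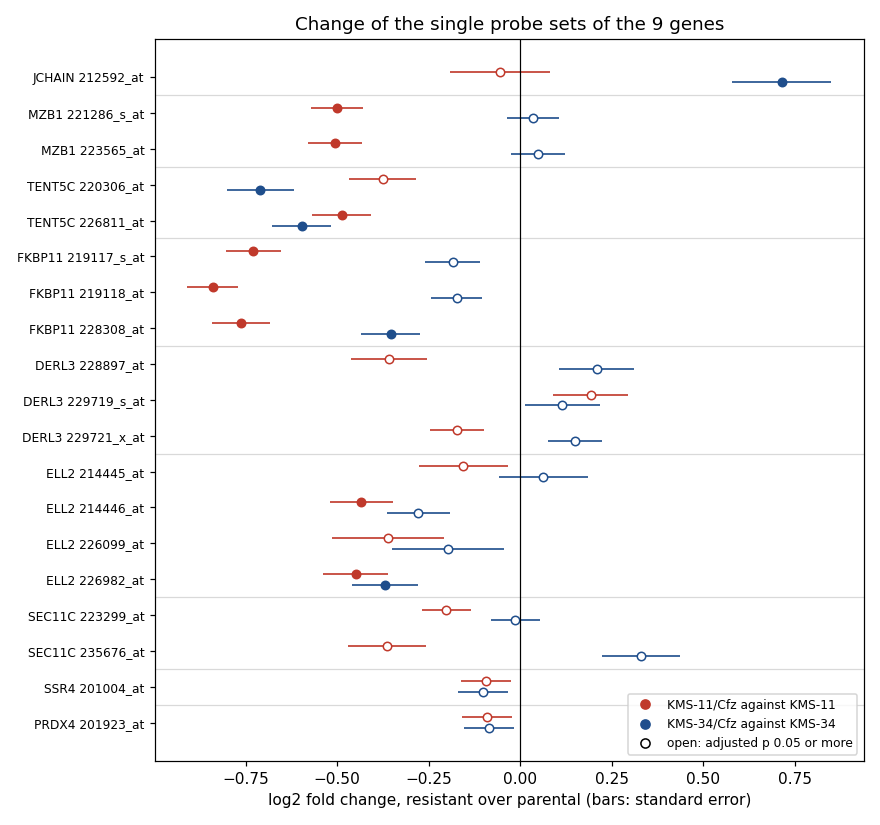
Log2 fold change of each of the 19 probe sets in either derivative over its parent, with standard errors, filled where the adjusted p over all probe sets was under 0.05. The 3 FKBP11 probe sets lie together between -0.84 and -0.73 in KMS-11/Cfz, while the 3 DERL3 probe sets spread from -0.36 to 0.19.

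For 8 of the 9 genes the parental lines differed from each other more than either derivative did from its parent. Set against KMS-11, KMS-34 was higher in MZB1, TENT5C, FKBP11 and PRDX4 and lower in JCHAIN, DERL3, ELL2 and SSR4, in a comparison where 21.6% of all genes were higher and 20.5% lower. JCHAIN was lower in KMS-34, with a log2 difference of -4.29 (SE 0.13, limma adjusted p = 8.3e-12), or 19.6-fold. Under cyclic loess scaling it was -2.19 and did not pass (limma adjusted p = 0.12). TENT5C was higher by 1.34 (SE 0.06, limma adjusted p = 5.6e-10), MZB1 by 1.15 (SE 0.06, limma adjusted p = 1.8e-09) and FKBP11 by 0.90 (SE 0.06, limma adjusted p = 1.8e-08). DERL3 (-0.75, limma adjusted p = 1.2e-06), ELL2 (-0.59) and SSR4 (-0.52) were lower in KMS-34, while PRDX4 was higher by 0.25. SEC11C did not pass, with a difference of -0.03 (95% interval -0.18 to 0.12, limma adjusted p = 0.81), and was at 0.28 with the probe set of largest variance (limma adjusted p = 0.053). The line accounted for 73.2% (ELL2) to 97.7% (JCHAIN) of the sum of squares over the 12 arrays in 8 of the genes. SEC11C was the exception, with 34.9% for the line, 46.2% for the unequal response of the lines and 15.2% between arrays of a group. The share common to both derivatives was highest for ELL2 (21.0%), TENT5C (16.0%) and FKBP11 (15.1%).

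**Figure D4:**
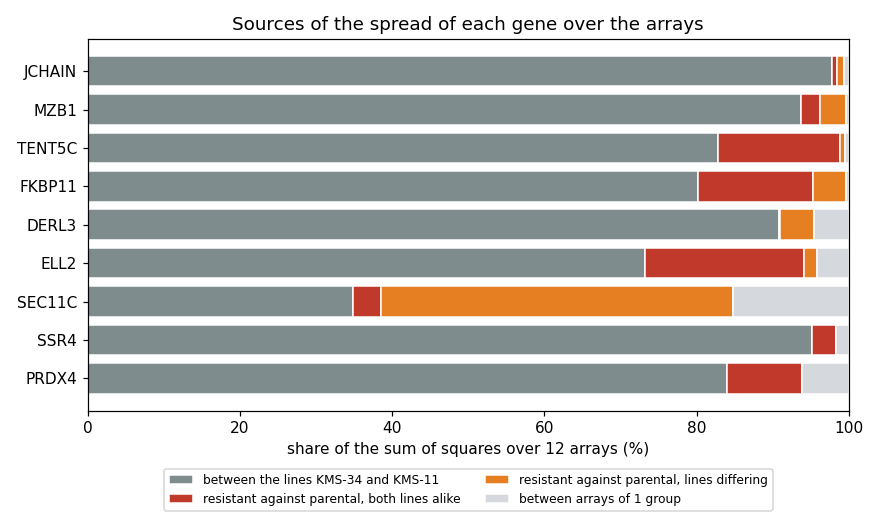
Share of each gene's sum of squares over 12 arrays, in percent, that lay between the lines, between resistant and parental cells alike in both lines, in the difference of that response between the lines, and between arrays of a group. The line holds most of every bar but that of SEC11C, where the difference in response takes 46.2%.

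The product that these genes serve is immunoglobulin, and 7 of 15 constant region genes had probe sets of their own. None of the 7 passed in either derivative, with changes from -0.01 to 0.14 in KMS-11/Cfz and from -0.08 to 0.06 in KMS-34/Cfz. Between the parents IGHG1 and IGHA1 differed by 0.04 each, IGHM by 1.07 and IGKC by 0.25, with KMS-34 higher. The heavy chain probe sets named below differed there by 3.71 to 6.38. Whether the 7 read the chains that these lines express was not tested, so they do not show that immunoglobulin mRNA was unchanged. A further 55 probe sets name several genes with a constant region gene among them, and were looked at after the values were seen. Of these, 1 fell and 0 rose in KMS-11/Cfz, where 1.02% of all probe sets fell and 0.729% rose. In KMS-34/Cfz 1 fell and 3 rose, where 3.18% of all probe sets fell and 3.87% rose. Among these were 3 that name light chain genes, 217157_x_at (-0.43), 215121_x_at (0.35) and 234764_x_at (0.42) in KMS-34/Cfz. The heavy chain probe set 228518_at measured 0.41, 0.51 and 0.68 in KMS-34/Cfz, against -0.41, -0.46 and -0.46 in KMS-34, a rise of 0.98 (SE 0.09, limma adjusted p = 2.2e-05 over probe sets). The heavy chain probe set 211430_s_at measured -7.03, -7.27 and -7.15 in KMS-11/Cfz, against -6.13, -6.70 and -6.48 in KMS-11, a fall of 0.71 (limma adjusted p = 0.0078). Centred values hold no level, so whether this probe set was above background in the KMS-11 cultures cannot be told. Between the parents, 211430_s_at was higher in KMS-34 by 6.38, 217022_s_at, which names IgA heavy chain genes, by 5.68 and 228518_at by 3.71, opposite in direction to JCHAIN. Which heavy chain such a probe set reads cannot be told.

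The partners of the 9 genes in the ER were described by 6 lists that hold none of the 9. These lists too were chosen with earlier results of these data known, so their counts are a description. Together they had 50 measured genes, of which 22 fell and 0 rose in KMS-11/Cfz (44.0% fell, against 1.94% of all genes). In KMS-34/Cfz 13 fell and 2 rose (26.0% fell, against 4.69% of all genes). Negative changes were seen for 43 of the 50 in KMS-11/Cfz (median -0.25) and for 41 of the 50 in KMS-34/Cfz (median -0.14). The difference between the lines passed for 9 of these genes, with the KMS-34 change higher in 8.

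At the channel and its TRAP partners, where SSR4 works, 5 of 8 fell in KMS-11/Cfz and 4 of 8 in KMS-34/Cfz. The TRAP subunit SSR3 fell by 0.38 in KMS-11/Cfz and by 0.24 in KMS-34/Cfz, and SSR2, another, by 0.22 in KMS-11/Cfz and by 0.40 in KMS-34/Cfz. SEC61B of the channel fell by 0.33 in KMS-11/Cfz, and SEC62, which assists it after translation, by 0.38 in KMS-34/Cfz. SSR4 itself changed by -0.09 and -0.10 and passed in neither. Of the other 4 signal peptidase genes, SPCS3 fell in both derivatives (-0.25 in KMS-11/Cfz, -0.35 in KMS-34/Cfz) and SPCS2 in KMS-34/Cfz (-0.23).

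Among 11 ER chaperones and cofactors, 5 fell in KMS-11/Cfz, while 3 did in KMS-34/Cfz. SDF2L1, which works in a chaperone complex with BiP, fell by 0.40 in KMS-11/Cfz and by 0.49 in KMS-34/Cfz, and MANF, a secreted protein of the stress response, by 0.40 in KMS-11/Cfz and by 0.45 in KMS-34/Cfz. CRELD2 fell by 0.49 in KMS-11/Cfz and was at -0.09 in KMS-34/Cfz (limma adjusted p = 0.48). Of 10 enzymes of oxidative folding, the step of PRDX4, 5 fell in KMS-11/Cfz but 0 in KMS-34/Cfz, led by the oxidase ERO1A (-0.50 in KMS-11/Cfz) and the disulfide isomerase PDIA3 (-0.46 in KMS-11/Cfz). Of 7 prolyl isomerases beside FKBP11, 2 fell in KMS-11/Cfz, PPIB (-0.41) and FKBP2 (-0.37), and in KMS-34/Cfz FKBP2 (-0.28) and PPIC (-0.34) fell and FKBP14 rose.

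Of 10 genes of ER-associated degradation, to which DERL3 belongs, 4 fell in KMS-11/Cfz, while 2 fell and 1 rose in KMS-34/Cfz. SEL1L, the scaffold of the HRD1 ligase, fell by 0.46 and SELENOS by 0.42 in KMS-11/Cfz. EDEM1, a lectin of the ER that picks misfolded glycoproteins, fell by 0.35 in KMS-11/Cfz and rose by 0.32 in KMS-34/Cfz, and the lines differed by 0.67 (limma adjusted p = 7.6e-04). Its relative EDEM3 was at 0.01 in KMS-11/Cfz (limma adjusted p = 0.99) and fell by 0.72 in KMS-34/Cfz.

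**Figure D5:**
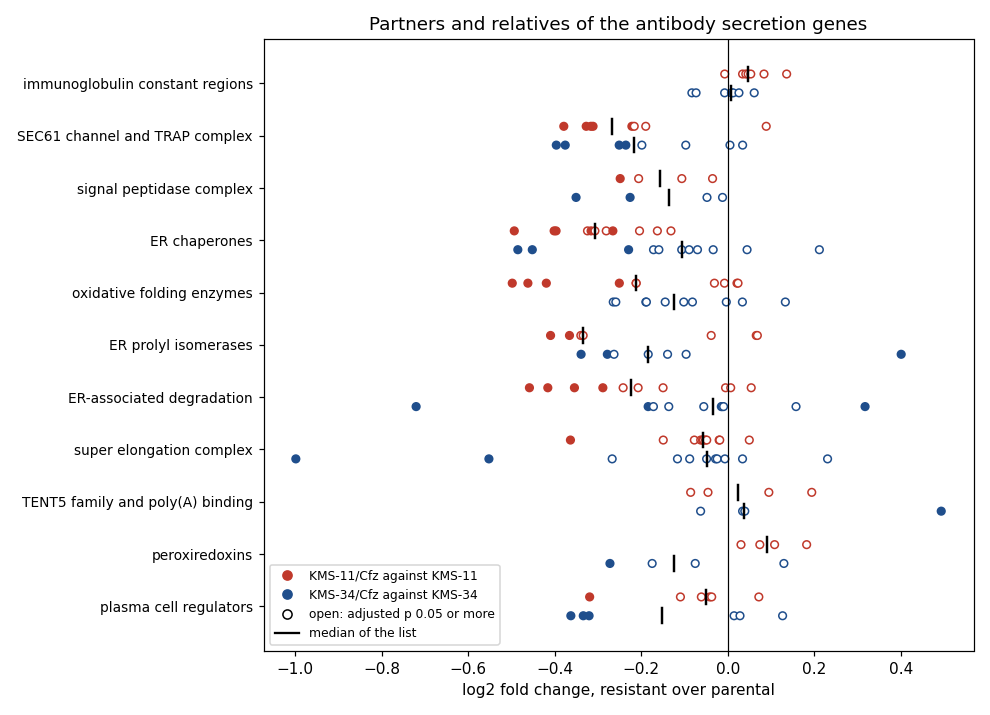
Log2 fold change of each measured gene of 11 lists around the 9 genes, in either derivative over its parent, filled where the adjusted p was under 0.05, with a bar at each list's median. The 7 immunoglobulin genes with probe sets of their own lie close to 0 in both derivatives. Immunoglobulin probe sets that name several genes are not drawn. Most ER genes lie below 0, 22 of 50 passing in KMS-11/Cfz and 13 of 50 falling in KMS-34/Cfz.

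Of 11 genes of the super elongation complex, in which ELL2 works, MLLT3 fell in both derivatives (-0.36 in KMS-11/Cfz, -0.55 in KMS-34/Cfz), and EAF2, a partner of ELL proteins, fell by 1.00 in KMS-34/Cfz and was at -0.05 in KMS-11/Cfz (limma adjusted p = 0.95). TENT5A, a poly(A) polymerase of the same family as TENT5C, rose by 0.49 in KMS-34/Cfz, where TENT5C fell, and was at -0.09 in KMS-11/Cfz (limma adjusted p = 0.71). Of 4 other peroxiredoxins, PRDX6 fell in KMS-34/Cfz (-0.27). Among 6 regulators of the plasma cell state, the transcription factor CREB3L2 fell in KMS-11/Cfz (-0.32), and PRDM1, the factor that drives plasma cell differentiation, ATF6, a sensor of ER stress, and IRF4 fell in KMS-34/Cfz, PRDM1 by 0.33 and ATF6 by 0.36.

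The likeness of the genes to each other was taken as Pearson's r over the 12 arrays after the mean of each line was removed, which leaves points that share arrays and a common contrast, and is given as a description. FKBP11 and ELL2 were most alike (r = 0.920), followed by MZB1 and FKBP11 (r = 0.915), and JCHAIN and TENT5C were most opposed (r = -0.673). Over all genes, the closest to FKBP11 were H2AC6 (r = 0.990) and CHDH (r = 0.984), and the closest to TENT5C were H1-2 (r = 0.986) and MYDGF (r = 0.986). MZB1 was closest to KRT18 (r = 0.984) and HLTF (r = 0.979), ELL2 to RCN2 (r = 0.977) and LGALS14 (r = 0.965), and SEC11C to PPCS (r = 0.972) and SP140 (r = 0.956). JCHAIN was closest to LAT2 (r = 0.959) and CSGALNACT1 (r = 0.942), and DERL3 to PSMB9 (r = 0.966), a subunit of the immunoproteasome, and TMUB1 (r = 0.941). SSR4 was closest to SETD3 (r = 0.989) and DHRS13 (r = 0.979), and PRDX4 to CALR (r = 0.960), the ER chaperone calreticulin, and NRROS (r = 0.933).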

How the data were processed

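RNA of KMS-11/Cfz, KMS-11, KMS-34/Cfz and KMS-34 cells, 3 replicates of each, was measured on Affymetrix arrays. The deposited values are log2 signals that the authors normalized with RMA (version not given in the sources used here) and that are centred probe set by probe set, from -7.75 to 8.64, so dim probe sets could not be filtered. The labels give 4% fetal bovine serum in the medium of all groups, and the methods of the paper give a higher share. Of 54613 probe sets, 41091 name 1 gene and were averaged to 19775 genes, while 1801 name several and 11721 none. Group means of all 12 arrays were fitted in limma 3.58.1 (R 4.3.3; lmFit, contrasts.fit, eBayes) with 8 residual degrees of freedom, two-sided tests and a Benjamini-Hochberg threshold of 0.05. The precision is limited by the number of arrays. The fit was tested on simulated data.

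The members and lists were chosen with earlier results of these data known. Named partners were, from each list and derivative, up to 2 genes with the largest change past the threshold and no overlap with parental arrays, and for each member the 2 genes most like it. SSR2 and MANF in KMS-11/Cfz, EDEM1 in KMS-11/Cfz, FKBP14 and IRF4 and the immunoglobulin probe sets were singled out after their values were seen. Alternatives were each line fitted alone, a replicate block, other scalings, array weights, the probe set of largest variance, a threshold of 0.01 and leaving out each array. Python 3.11.15 with pandas 2.3.3, numpy 2.4.6 and matplotlib 3.10.9 made the promoter tables and figures. Promoter sequences are from RefSeq, where entries for ELL2 and DERL3 were not used here.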

Additional observations from a re-analysis of the deposited data

Results flagged for a closer look

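For 4 genes the change in KMS-34/Cfz differed from that in KMS-11/Cfz by the limma interaction test. The difference was 0.77 for JCHAIN (adjusted p = 0.027), which rose in KMS-34/Cfz (3 of 3 arrays above every KMS-34 array). It was 0.54 for MZB1 (adjusted p = 0.0018) and 0.54 for FKBP11 (adjusted p = 0.0016), and 0.44 for SEC11C (adjusted p = 0.018), each of which lay below parental values on 3 of 3 arrays in KMS-11/Cfz. Of all genes, 13.7% lay wholly below in KMS-11/Cfz and 10.2% wholly above in KMS-34/Cfz. FKBP11 lay wholly below its parent in KMS-34/Cfz too. The JCHAIN difference was lost on leaving out any of 7 arrays, and the SEC11C difference on leaving out any of 4.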

How the results depend on the processing

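Of 882 changes of single genes recomputed, 804 kept their direction and their side of the threshold, 54 lost it, 8 gained it and 16 turned direction. Many of these recomputations could not turn a direction. A threshold of 0.01, the compared groups fitted alone and a replicate block left the size of a change as it was. So did omitting an array of a group not compared, and the probe set of largest variance for a gene with 1 probe set. The 804 are therefore no measure of robustness. At a threshold of 0.01, 3 members fell in KMS-11/Cfz, while 1 did in KMS-34/Cfz, 0 rose on average over the lines and the difference between lines passed upward for 2. Cyclic loess scaling, which follows the average of centred values and so of no level, left 3 members falling in KMS-11/Cfz, 0 rising in KMS-34/Cfz, 0 rising on average, and 2 higher and 1 lower (TENT5C) in the difference between lines. It turned JCHAIN to 2.35 in KMS-11/Cfz (adjusted p = 0.28) and to -2.19 in the difference between lines, PRDX4 to -0.035 there, and took the JCHAIN difference between the parents to -2.19 (adjusted p = 0.12). Quantile normalization made the TENT5C difference between lines pass (-0.44, 1 member lower) and turned MZB1 in KMS-34/Cfz to -0.036, SSR4 to 0.015 and PRDX4 to -0.00036 in the difference between lines. With aligned medians SSR4 stood there at 0.0029. With each line fitted alone 1 member fell in KMS-34/Cfz. With the probe set of largest variance 0 members rose on average, though the values of JCHAIN, with its single probe set, were the same. With that setting ELL2 passed in KMS-34/Cfz (-0.37), FKBP11 did not (-0.17), DERL3 averaged -0.075 and SEC11C was higher in KMS-34 than in KMS-11 by 0.28. The cause of these shifts was not tested.

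Leaving out 1 array gave 3 to 5 members falling in KMS-11/Cfz, 1 to 2 rising and 1 to 3 falling in KMS-34/Cfz, 0 to 1 rising on average and 2 to 5 with a higher change in KMS-34/Cfz. Small values took either sign. The difference between lines ran from -0.033 to 0.032 for PRDX4 (below 0 without KMS-11/Cfz replicate 2, KMS-11 replicate 1 or KMS-34 replicate 1) and from -0.040 to 0.028 for SSR4 (above 0 without replicate 1 of KMS-34/Cfz or replicate 3 of KMS-34). The mean change of DERL3 ran from -0.010 (without KMS-34/Cfz replicate 3) to 0.061, and SEC11C between the parents from -0.087 to 0.0051 (without KMS-11 replicate 2).

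With the replicate number as a block, 4 members fell in KMS-11/Cfz (SEC11C adjusted p = 0.063) and 0 rose on average (JCHAIN adjusted p = 0.059), and the other member counts were the same. Arrays of the same number shared deviations with r = -0.01, 0.13 and 0.04 in the KMS-11 line and r = 0.56, 0.37 and 0.05 in KMS-34, where KMS-34/Cfz replicate 3 was closest to KMS-34 replicate 2 (r = 0.44), so the numbers were not taken to pair arrays.

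Over all genes, 322 rose and 384 fell in KMS-11/Cfz, 1068 rose and 928 fell in KMS-34/Cfz, 789 and 763 on average, and 732 and 542 differed between lines upward and downward. These counts were 135 and 167, 561 and 461, 347 and 357, and 306 and 233 at a threshold of 0.01. With each line fitted alone, KMS-11/Cfz had 649 rising and 725 falling, KMS-34/Cfz 435 and 319. With array weights, 913 rose and 1092 fell in KMS-11/Cfz, 1730 rose in KMS-34/Cfz, 1508 rose and 1231 fell on average, and 1637 and 1075 differed. Cyclic loess gave 568 rising in KMS-11/Cfz and 985 lower in the difference. Omitting 1 array gave 141 to 492 rising and 187 to 575 falling in KMS-11/Cfz, and 677 to 1704 rising in KMS-34/Cfz.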
